A study of Mus musculus with 10 samples.

Results

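The 10 genes described here encode secreted signals measured in mouse epidermis: 7 ligands of the BMP and TGF-β family (Bmp2, Bmp4, Bmp6, Bmp7, Tgfb1, Tgfb2 and Tgfb3) and 3 antagonists that bind such ligands outside the cell (Nog, Grem1 and Fst). They were chosen by gene name, and all 10 were found among the 18502 genes of the Eed table and the 18344 genes of the Ring1 table, which hold 19090 genes between them. The 10 libraries are from interfollicular keratinocytes of back skin at postnatal day 71, sorted as EpCAM+, Sca1+ cells with high α6-integrin. The groups were Eed KO (genotype Eed -/-, n = 3), Eed Control (n = 3), Ring1a/b 2KO (genotype Ring1a-/- Ring1b-/-, n = 2) and Ring1 Control (n = 2). The genotype label of both control groups is Control. Their alleles and the Cre driver, not given in the sources used here, limit what the groups can be called. 4-hydroxytamoxifen at 20 mg/ml was put on shaved back skin from postnatal day 50, 100 µl a day for 4 days, to induce recombination. The design names separate controls for each knockout, so each was compared with its own.

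BMP and TGF-β ligands are cut from larger precursors, act as dimers, and signal through pairs of type I and type II serine kinase receptors to SMAD transcription factors. In skin, BMPs hold hair follicle stem cells at rest and promote differentiation of keratinocytes, while TGF-β ligands restrain keratinocyte division. Noggin (Nog) and gremlin (Grem1) capture BMPs, and follistatin (Fst) captures mainly activins. Eed is a core subunit of Polycomb repressive complex 2 (PRC2), and PRC1 marks histone H2A with ubiquitin through Ring1 (Ring1a) or Rnf2 (Ring1b). Both complexes keep developmental genes silent, and in mammals they gather at promoters rich in CpG dinucleotides.

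The recovered read totals were 31699979 to 40701183 in Eed KO and 32667439 to 39006853 in Eed Control libraries, and 6237389 and 19814853 in Ring1a/b 2KO against 7162907 and 25158144 in Ring1 Control libraries. The 9 basal keratinocyte markers fixed for the check, among them Krt5, Krt14, Epcam and Ly6a (Sca1), summed to 1248350 to 1738910 normalised counts in Eed KO and 1193770 to 1714840 in Eed Control. They summed to 242988 to 288848 in Ring1a/b 2KO and 277197 to 351340 in Ring1 Control, so the markers of the labelled cells were abundant in every library. Eed, the targeted gene, had 1412, 1143 and 1340 counts in Eed KO against 1845, 1319 and 1706 in Eed Control. Rnf2 had 720 and 529 counts in Ring1a/b 2KO against 675 and 670 in Ring1 Control, and Ring1 had 104 and 115 against 66.2 and 211. These whole-gene counts do not test the genotypes, because the exons removed were not given in the sources used here. The Y-linked genes Ddx3y and Eif2s3y together had 14.4, 4743 and 26.8 counts in Eed KO 1 to 3 against 5804, 4058 and 25.3 in Eed Control 1 to 3. They had 9.27 and 50.2 counts in Ring1a/b 2KO against 1665 and 630 in Ring1 Control, so in that comparison genotype and Y-linked level cannot be told apart.

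Per length, Bmp4 was the most abundant of the 10 transcripts in both control groups, and Bmp6 and Nog were the least abundant. On the scale of normalised counts per kb of exon, levels in Eed Control were 1245 ± 377 for Bmp4, 570 ± 90.7 for Bmp2, 550 ± 53.0 for Fst and 516 ± 52.8 for Bmp7 (SD, n = 3). The ranges of Bmp2, Fst and Bmp7 overlapped, so their order is not fixed, and all 3 lay below the lowest Bmp4 library, at 934 per kb. Tgfb1 followed at 175 ± 51.3 per kb, Tgfb2 at 77.8 ± 22.1, Tgfb3 at 44.6 ± 22.4 and Grem1 at 43.9 ± 26.2 (SD, n = 3), where Tgfb3 and Grem1 overlapped and Grem1 also reached into the Tgfb2 range, with a highest library of 70.9. Nog had 3.52 ± 3.13 and Bmp6 2.40 ± 2.96 per kb (SD, n = 3). In Ring1 Control the 4 highest were again Bmp4 (653 per kb), Bmp2 (286), Fst (245) and Bmp7 (228), and Tgfb2 (56.8) stood just above Tgfb1 (52.8). In both knockouts Fst had the highest mean per kb, 1064 ± 381 in Eed KO (SD, n = 3) and 377 ± 195 in Ring1a/b 2KO (SD, n = 2), with Bmp4 next at 1012 ± 359 and 327 ± 156. The ranges of Fst and Bmp4 overlapped in both knockouts.

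**Figure D1:**
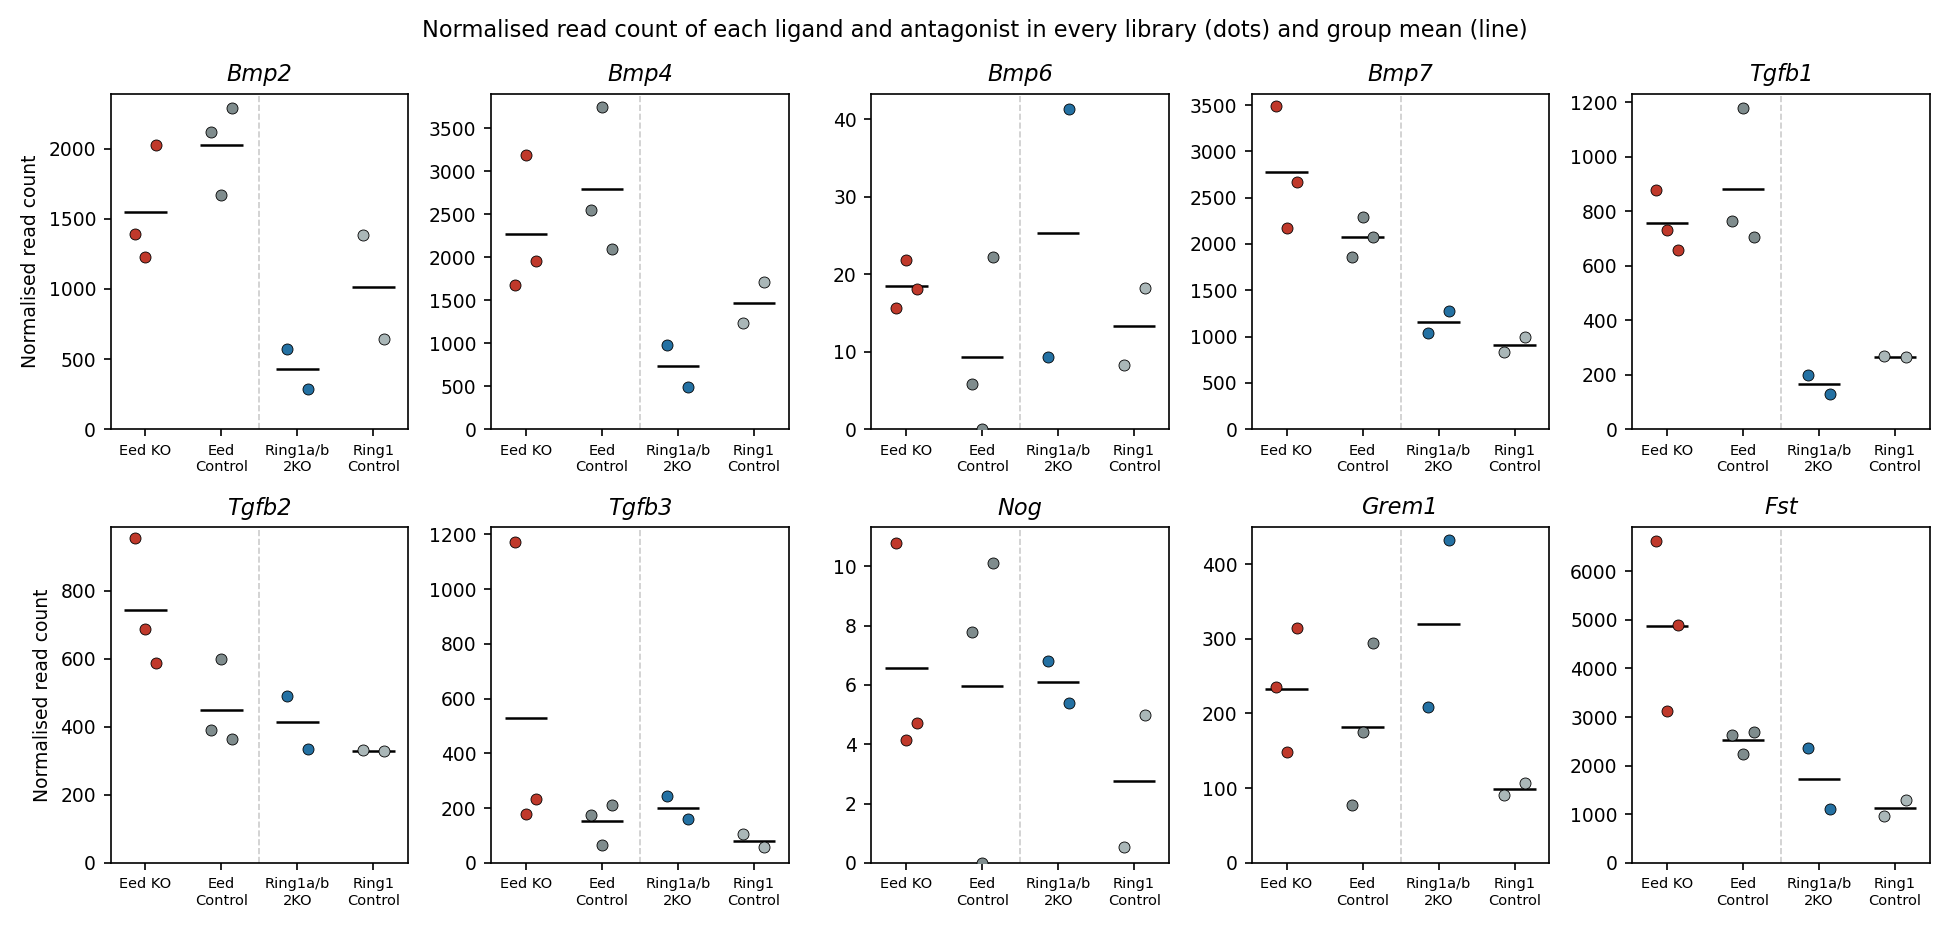
Normalised read counts (y axis, linear from 0) of each of the 10 genes in every library, by group (x axis), with dots for libraries and a line for the group mean; the tables left and right of the dashed line were normalised separately. All Eed KO dots lie above all Eed Control dots for Fst only, and in the Ring1 comparison Bmp2, Bmp4 and Tgfb1 lie lower and Bmp7, Tgfb2, Tgfb3, Grem1 and Nog higher in both 2KO libraries.

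None of the 10 genes passed limma at an adjusted p under 0.05 in either comparison, where p-values were adjusted over all genes of a table. The call rate over all genes was 0% of 16122 in the Eed comparison and 0.0392% of 15310 in the Ring1 comparison. At an unadjusted p under 0.05 limma held 2 of 10 members in the Eed comparison, Fst and Tgfb2, both higher, where 4.73% of all genes did so, 3.4% higher and 1.33% lower. edgeR on recovered reads also called 0 members there and had 3 at an unadjusted p under 0.05, where 4.6% of all genes were. In the Ring1 comparison 9 members were tested, since Nog lay below a mean of 5 counts, and 4 had an unadjusted p under 0.05, against 10.4% of all genes (5.62% higher and 4.81% lower). Split by direction, limma called 0.0327% of all genes higher and 0.00653% lower there. The 4 members were Grem1 and Tgfb3, with higher values in 2KO, and Bmp4 and Tgfb1, with lower values. edgeR called 0 of the members it tested there too, with 4 at an unadjusted p under 0.05, where 9.64% of all genes were. In the authors' deposited table, made with DESeq2, 0 members were called in the Eed comparison, where 0.761% of all genes were (0.707% higher and 0.0539% lower). That table called 1 member, Grem1, in the Ring1 comparison, where 1.49% of all genes were called (1.18% higher and 0.31% lower). In bulk samples like these, fewer cells of a type and less RNA per cell cannot be told apart.

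Bmp2 and Bmp4 are closely related ligands, and both had lower means in the knockouts. Bmp2 (ENSMUSG00000027358.6, mm10 chromosome 2, 133552159 to 133562885) had normalised read counts of 570 and 285 in the Ring1a/b 2KO libraries against 1387 and 643 in Ring1 Control. Both 2KO libraries lay below both controls, although the controls differed between themselves by more than the gap between the groups. In both groups library 1, the deeper, had the higher count. The limma log2 fold change was −1.23 (95% interval −2.57 to 0.12, adjusted p = 0.512). In Eed KO it had 1392, 1227 and 2029 counts against 2122, 1669 and 2293 in Eed Control. These groups overlapped because Eed KO 3 was above Eed Control 2, and the log2 fold change was −0.41 (95% interval −0.93 to 0.11, limma adjusted p = 0.989).

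Bmp4 (ENSMUSG00000021835.15, chromosome 14, 46383520 to 46390669) had 985 and 488 counts in Ring1a/b 2KO against 1231 and 1707 in Ring1 Control. The groups did not overlap, and the 2KO mean was 50.1% of the control mean, with a log2 fold change of −1.06 (95% interval −1.93 to −0.20, unadjusted p = 0.0233, limma adjusted p = 0.413). Without each library in turn the value ran from −1.57, without 2KO library 1, to −0.56. In such fits the spread of the lone library is taken from the other group. In Eed KO, Bmp4 had 1674, 3191 and 1959 counts against 2554, 3741 and 2100 in Eed Control. These ranges overlapped over most of their width, and the log2 fold change was −0.31 (95% interval −0.96 to 0.34, limma adjusted p = 0.989).

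Bmp7, which can pair with BMP2 or BMP4 in a mixed dimer, stood on the other side. Bmp7 (ENSMUSG00000008999.7, chromosome 2, 172868012 to 172940321) had 1038 and 1277 counts in Ring1a/b 2KO against 833 and 997 in Ring1 Control. The lower 2KO library was only just above the higher control, and the log2 fold change was 0.34 (95% interval −0.15 to 0.82, limma adjusted p = 0.629). Eed KO libraries had 3492, 2170 and 2667 counts of Bmp7 against 1862, 2287 and 2076 in Eed Control. Eed KO 1 and 3 were above every control and Eed KO 2 was not, with a log2 fold change of 0.40 (95% interval −0.07 to 0.87, limma adjusted p = 0.989).

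Within a library, the balance among the BMP ligands does not depend on how libraries were scaled to each other. Bmp7 made up 30.1% and 50.8% of the counts per kb of the 4 BMP ligands in Ring1a/b 2KO against 18.1% and 20.8% in Ring1 Control. Its share was 43.2%, 23.4% and 31.4% in Eed KO against 21.1%, 21.1% and 24.6% in Eed Control. The Ring1 groups did not overlap, as the counts of 42.9% of all genes did not, and in the Eed comparison Eed KO 2 lay within the controls. Bmp4 held the largest share in every control library and in all knockout libraries except Eed KO 1 and Ring1a/b 2KO 2, where Bmp7 did.

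Bmp6 was scarce. Bmp6 (ENSMUSG00000039004.6, chromosome 13, 38345107 to 38500302) had 13, 21 and 23 reads in Eed KO against 6, 0 and 22 in Eed Control, and 15 and 23 reads in Ring1a/b 2KO against 16 and 11 in Ring1 Control. The 0 in Eed Control 2 allows up to 3 reads, or 3.04 normalised counts. The groups overlapped in both comparisons, and the limma intervals of the log2 fold change ran from −0.63 to 4.30 in the Eed comparison and from −1.37 to 2.64 in the Ring1 comparison.

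The TGF-β ligands also diverged among themselves. Tgfb1, the form best known from wounds and immune control (ENSMUSG00000002603.15, chromosome 7, 25687002 to 25705077), had 200 and 129 counts in Ring1a/b 2KO against 268 and 264 in Ring1 Control. Both 2KO libraries were lower, with a log2 fold change of −0.72 (95% interval −1.44 to −0.0056, unadjusted p = 0.0486, limma adjusted p = 0.477). In Eed KO, Tgfb1 had 878, 732 and 657 counts against 764, 1179 and 704 in Eed Control. These groups overlapped, and the log2 fold change of −0.19 (limma adjusted p = 0.989) was 0.033 without Eed Control 2.

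Tgfb2, needed in mice for hair follicle development (ENSMUSG00000039239.14, chromosome 1, 186622792 to 186705989), had 956, 687 and 589 counts in Eed KO against 390, 598 and 364 in Eed Control. Eed KO 1 and 2 exceeded every control, while Eed KO 3 was slightly under Eed Control 2. The log2 fold change was 0.73 (95% interval 0.09 to 1.36, unadjusted p = 0.0290, limma adjusted p = 0.989). Tgfb2 had 491 and 335 counts in Ring1a/b 2KO against 330 and 327 in Ring1 Control. The groups were separated by a few counts only, and the log2 fold change was 0.30 (95% interval −0.29 to 0.90, limma adjusted p = 0.737).

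Tgfb3, a ligand with a role in mouse palate fusion, had the highest ratio of means among the TGF-β ligands in both comparisons. Tgfb3 (ENSMUSG00000021253.7, chromosome 12, 86056745 to 86079041) had 242 and 161 counts in Ring1a/b 2KO against 104 and 56.5 in Ring1 Control. Both 2KO libraries were higher, 2.52-fold in the means, with a log2 fold change of 1.36 (95% interval 0.41 to 2.31, unadjusted p = 0.0102, limma adjusted p = 0.349). In Eed KO, Tgfb3 had 1171, 179 and 233 counts against 175, 65.9 and 211 in Eed Control. Eed KO 1 alone was far above the rest, Eed KO 3 was just above the controls, and Eed KO 2 lay inside their range. The log2 fold change was 1.43 (95% interval −0.15 to 3.01, limma adjusted p = 0.989), and 0.60 without Eed KO 1. The 5 pericyte and smooth muscle markers summed to 20.5 to 448 counts in Eed KO and 30.3 to 59.9 in Eed Control. They were also highest in Eed KO 1, with Pdgfrb at 0 in the controls. Their most abundant gene, Acta2, had 14.2 to 396 counts in Eed KO and 16.2 to 37.0 in Eed Control. The 8 fibroblast and dermal papilla markers summed to 120, 79.9 and 267 counts in Eed KO 1 to 3 and 32.5 to 221 in Eed Control. The 3 Merkel cell markers in the table summed to 13.5 to 91.1 counts in Eed KO and 3.04 to 12.1 in Eed Control. Of these, Krt18 and Krt8 had log2 fold changes of 2.75 and 2.34 in the authors' deposited table and Krt20 had −0.36, without passing. The part of these marker lists in the Tgfb3 value was not tested. In the authors' deposited table the adjusted p of Tgfb3 was 0.290 in the Eed comparison and 0.202 in the Ring1 comparison.

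The share of Tgfb1 among the TGF-β ligands was lower in every knockout library than in every one of its controls. Over all genes, the counts of 9.2% in the Eed and 42.9% in the Ring1 comparison did not overlap between groups. In the Eed comparison the Tgfb1 counts themselves overlapped, and the means of Tgfb2 and Tgfb3, which also set this share, were higher in Eed KO. Tgfb1 made up 25.4%, 45.8% and 43.3% of the counts per kb of the 3 genes in Eed KO against 56.0%, 65.6% and 52.7% in Eed Control. Its share was 20.2% and 19.5% in Ring1a/b 2KO against 37.7% and 41.7% in Ring1 Control. The share of Tgfb3 was 36.5% and 36.4% in Ring1a/b 2KO against 21.8% and 13.3% in Ring1 Control, while that of Tgfb2 differed little there, at 43.2% and 44.1% against 40.5% and 45.0%. In Eed KO the Tgfb3 share was 50.5%, 16.7% and 22.9% against 19.2%, 5.47% and 23.6% in Eed Control, so only Eed KO 1 stood above the controls. No test was made of these shares, since the genes were chosen with results known.

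**Figure D2:**
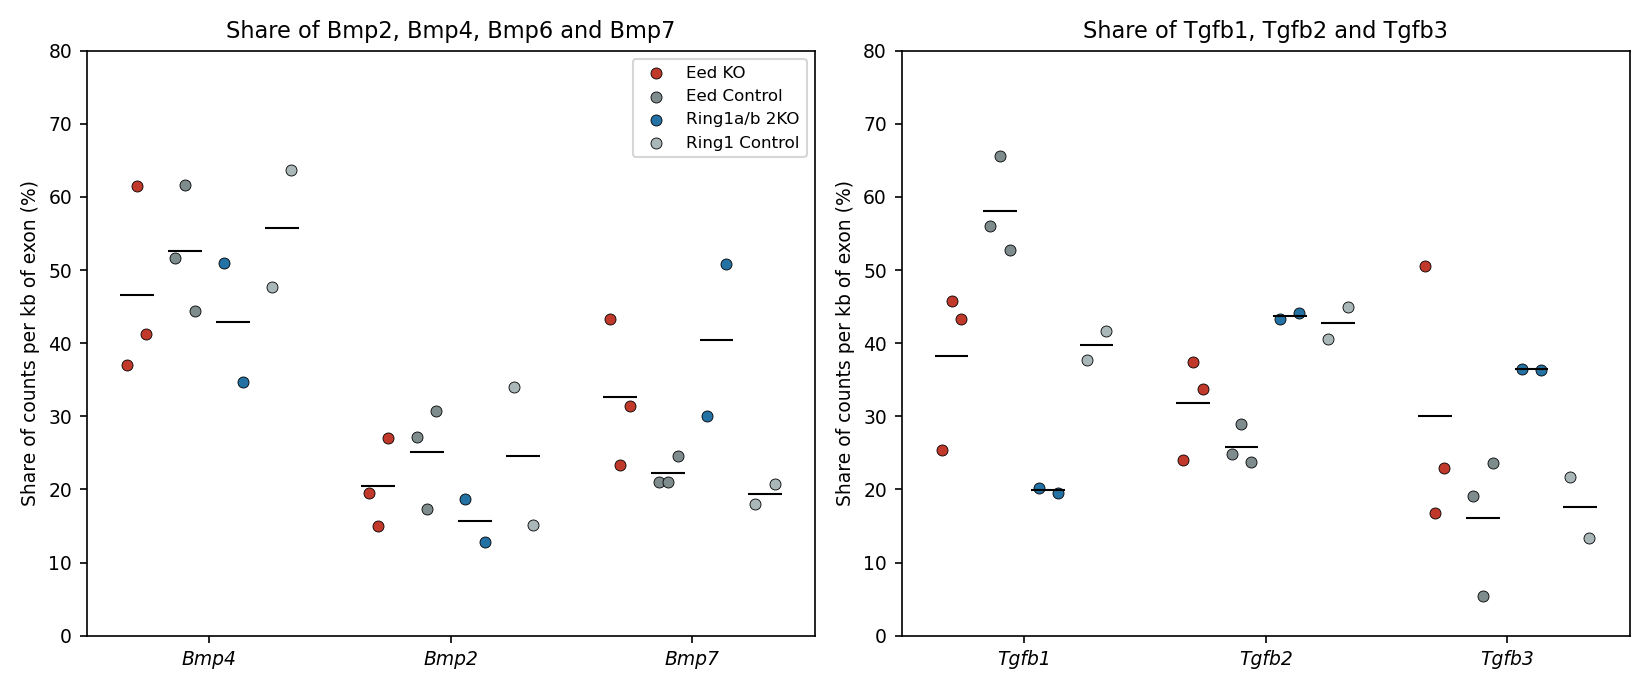
Share (y axis, percent of counts per kb of exon) of each named ligand within the BMP ligands (left) and the TGF-β ligands (right) in every library, with dots for libraries, lines for group means and colours for groups. The Tgfb1 share is 19.5% to 20.2% in Ring1a/b 2KO against 37.7% to 41.7% in Ring1 Control, and 25.4% to 45.8% in Eed KO against 52.7% to 65.6% in Eed Control.

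Among the antagonists, Grem1 stood out in the Ring1 comparison by the authors' own test. Grem1 (ENSMUSG00000074934.3, chromosome 2, 113746164 to 113758646) had 208 and 432 normalised counts in Ring1a/b 2KO against 90.6 and 106 in Ring1 Control, from 337 and 241 reads against 174 and 64. Both 2KO libraries were above both controls, 3.25-fold in the means. In the authors' deposited table its log2 fold change was 1.70 (SE 0.459, adjusted p = 0.0201), and limma gave 1.60 (95% interval 0.72 to 2.49, unadjusted p = 0.00259, adjusted p = 0.230). edgeR on recovered reads gave an adjusted p of 0.305. DESeq2 on recovered reads, with 1 library left in an arm, gave a log2 value of 1.59 without Ring1 Control 1 (adjusted p = 0.789) and 1.80 without Ring1 Control 2 (adjusted p = 0.263), and the call was lost with little change in size. Without Ring1a/b 2KO 2 it gave 1.10 (adjusted p = 1.00). Without Ring1a/b 2KO 1 its adjusted p was 0.00204 and the log2 value 2.14, and Bmp2 and Bmp4 were then called too, both lower.

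Grem1 had 235, 148 and 315 counts in Eed KO against 76.9, 176 and 294 in Eed Control. The groups overlapped almost fully, and the log2 fold change was 0.48 (95% interval −0.65 to 1.62, limma adjusted p = 0.989), or −0.032 without Eed Control 1. The difference between the Eed and Ring1a/b effects on Grem1 was −1.12 on the log2 scale (95% interval −2.77 to 0.54, limma adjusted p = 1.00), so the data do not show that the knockouts differ.

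Markers of other cells and library quality also stood apart between the Ring1 groups, and their part in the Grem1 value was not tested. The 8 fibroblast and dermal papilla markers, whose cells make gremlin in dermis, summed to 120 to 130 counts in Ring1a/b 2KO and 58.3 to 76.4 in Ring1 Control. Their most abundant gene, Col1a1, had 48.4 to 51.9 counts in Ring1a/b 2KO and 11.5 to 24.9 in Ring1 Control, below the level of Grem1 itself in every library, and Dpt had no read in Ring1 Control. The 4 pericyte and smooth muscle markers in the table summed to 39.4 to 41.4 counts in Ring1a/b 2KO and 10.4 to 11.6 in Ring1 Control, with Pdgfrb at 0 in the controls. The 3 Merkel cell markers in the table summed to 34.1 to 105 counts in Ring1a/b 2KO and 6.25 to 13.3 in Ring1 Control. Their most abundant gene, Krt18, had 32.3 to 96.4 counts in Ring1a/b 2KO and 3.32 to 5.21 in Ring1 Control. They did not move as a group. In the authors' deposited table Krt18 and Krt8 had log2 fold changes of 3.86 and 3.60, and Krt20 had −3.43. The 7 melanocyte markers summed to 342 to 630 counts in Ring1a/b 2KO and 240 to 311 in Ring1 Control, with Tyrp1 at 0 in the controls. The 4 Schwann cell markers were lower, at 303 to 329 counts in Ring1a/b 2KO and 505 to 551 in Ring1 Control, with Cdh19 at 0 in 2KO. The 6 markers of differentiated keratinocytes summed to 46156 to 51902 counts in Ring1a/b 2KO and 27421 to 31927 in Ring1 Control, but they did not move as a group. Krt1 had 24228 to 35925 counts in Ring1a/b 2KO and 9866 to 13947 in Ring1 Control, with a log2 fold change of 1.34 in the authors' deposited table (adjusted p = 0.00247). In the same authors' deposited table Lor had −2.17 (adjusted p = 0.00592), and Ivl, Sbsn and Flg had −0.64, −0.58 and −0.49 without passing. The 7 hair follicle markers summed to 5921 to 8589 counts in Ring1a/b 2KO and 5371 to 6773 in Ring1 Control, which overlapped. Cd34, Lgr5 and Lhx2 had log2 fold changes of 2.89, 1.60 and 1.68 in the authors' deposited table (adjusted p = 0.00357, 0.0322 and 0.00804). Without passing, Krt79, Krt75 and Sox9 had 1.21, 1.15 and 0.55, and Lgr6, the most abundant, had −0.51. Of the 9 basal keratinocyte markers, Krt15, Col17a1, Itga6 and Itgb4 had −0.99, −0.88, −0.69 and −0.47 in the authors' deposited table. Trp63, Krt5 and Epcam had −0.46, −0.11 and −0.09, Krt14 and Ly6a had 0.11 and 0.38, and none passed. The mitochondrial share of reads was 8.16% and 12.7% in Ring1a/b 2KO against 6.51% and 7.28% in Ring1 Control.

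Promoter sequence is shown for 3 members because Polycomb complexes gather at CpG-rich promoters and because these 3 differ in both CpG content and behaviour: Grem1, called higher in Ring1a/b 2KO; Bmp4, a BMP that gremlin binds, with lower means; and Tgfb2. Each run is the 250 bases before the transcription start in RefSeq's GRCm38.p6 table (the mm10 build), minus strand, 5′ to 3′, with CpG dinucleotides in capitals.
Grem1, chr2:113758649-113758898: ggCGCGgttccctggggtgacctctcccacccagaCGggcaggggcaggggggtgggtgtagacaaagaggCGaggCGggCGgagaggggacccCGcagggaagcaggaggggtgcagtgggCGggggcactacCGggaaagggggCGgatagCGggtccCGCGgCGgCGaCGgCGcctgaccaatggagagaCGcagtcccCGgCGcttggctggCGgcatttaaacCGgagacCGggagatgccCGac
Bmp4, chr14:46390670-46390919: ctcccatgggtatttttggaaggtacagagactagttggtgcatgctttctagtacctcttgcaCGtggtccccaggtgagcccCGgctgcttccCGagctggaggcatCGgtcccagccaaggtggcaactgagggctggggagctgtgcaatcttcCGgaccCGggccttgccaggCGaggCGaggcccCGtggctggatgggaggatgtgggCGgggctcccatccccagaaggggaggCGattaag
Tgfb2, chr1:186705990-186706239: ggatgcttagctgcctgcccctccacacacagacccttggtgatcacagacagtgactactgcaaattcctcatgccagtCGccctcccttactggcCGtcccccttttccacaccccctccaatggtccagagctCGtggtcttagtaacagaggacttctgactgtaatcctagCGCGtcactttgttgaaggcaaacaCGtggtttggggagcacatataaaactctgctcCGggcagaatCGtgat

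The Grem1 window held 24 CpGs, more than 88.0% of the 32851 promoter windows in that table, whose median was 6. Bmp6 had 22 and Tgfb1 21, while Bmp4 had 11 and Tgfb2 8, so all 5 members with an entry were above the median and the count did not follow the sign of their log2 fold changes. The ratio of observed to expected CpG was 0.797 for Grem1, 0.451 for Bmp4 and 0.460 for Tgfb2. On either strand, the GC box GGGCGG occurred 3 times in the Grem1 window, once in that of Bmp4 and not in that of Tgfb2, where 32.7% of all windows held it. The palindrome GGCGCC, a GC-rich motif that SMADs can bind, was found in the Grem1 window and in 9.59% of all. The TATA box TATAAA occurred in the Tgfb2 window and in 12.4% of all. These matches describe letters and are not evidence of binding.

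Fst had the smallest limma p of the members in the Eed comparison. Fst (ENSMUSG00000021765.9, chromosome 13, 114452290 to 114458951) had 6628, 3132 and 4887 counts in Eed KO against 2631, 2244 and 2692 in Eed Control. All 3 Eed KO libraries were above all controls, 1.94-fold in the means, and it was the 1 member of 10 whose groups did not overlap, where 9.2% of all genes did not (5.06% higher and 4.15% lower). The log2 fold change was 0.89 (95% interval 0.30 to 1.48, unadjusted p = 0.00745, limma adjusted p = 0.779), and the authors' deposited table gave 0.95 (SE 0.296, adjusted p = 0.117). Without Eed KO 2 the adjusted p of DESeq2 on recovered reads was 0.0016 for Fst, and without each other library in turn it was 0.246 to 0.905. The log2 fold change ran from 0.67 to 1.19 over these fits. A limma term for the Y-linked level gave 0.72. The differentiated keratinocyte markers summed to 117870 to 275286 counts in Eed KO and 188311 to 389185 in Eed Control, and their part was not tested. Fst had 2364 and 1099 counts in Ring1a/b 2KO against 955 and 1291 in Ring1 Control. Those groups overlapped, since 1 of the 2KO libraries lay between the controls, and the log2 fold change was 0.54 (95% interval −0.42 to 1.49, limma adjusted p = 0.686).

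Nog (ENSMUSG00000048616.4, chromosome 11, 89300638 to 89302332) was close to the limit of detection. It had 9, 4 and 6 reads in Eed KO against 8, 0 and 10 in Eed Control, and 11 and 3 reads in Ring1a/b 2KO against 1 and 3 in Ring1 Control. In normalised counts that was 6.80 and 5.38 in Ring1a/b 2KO against 0.521 and 4.99 in Ring1 Control. Both 2KO libraries lay above both controls, the nearest pair having 3 reads each. In Eed Control 2 the 0 allows up to 3 reads. The authors' deposited table gave Nog an adjusted p of 0.962 in the Ring1 comparison and 1.00 in the Eed comparison, so a difference was not detectable at this depth.

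**Figure D3:**
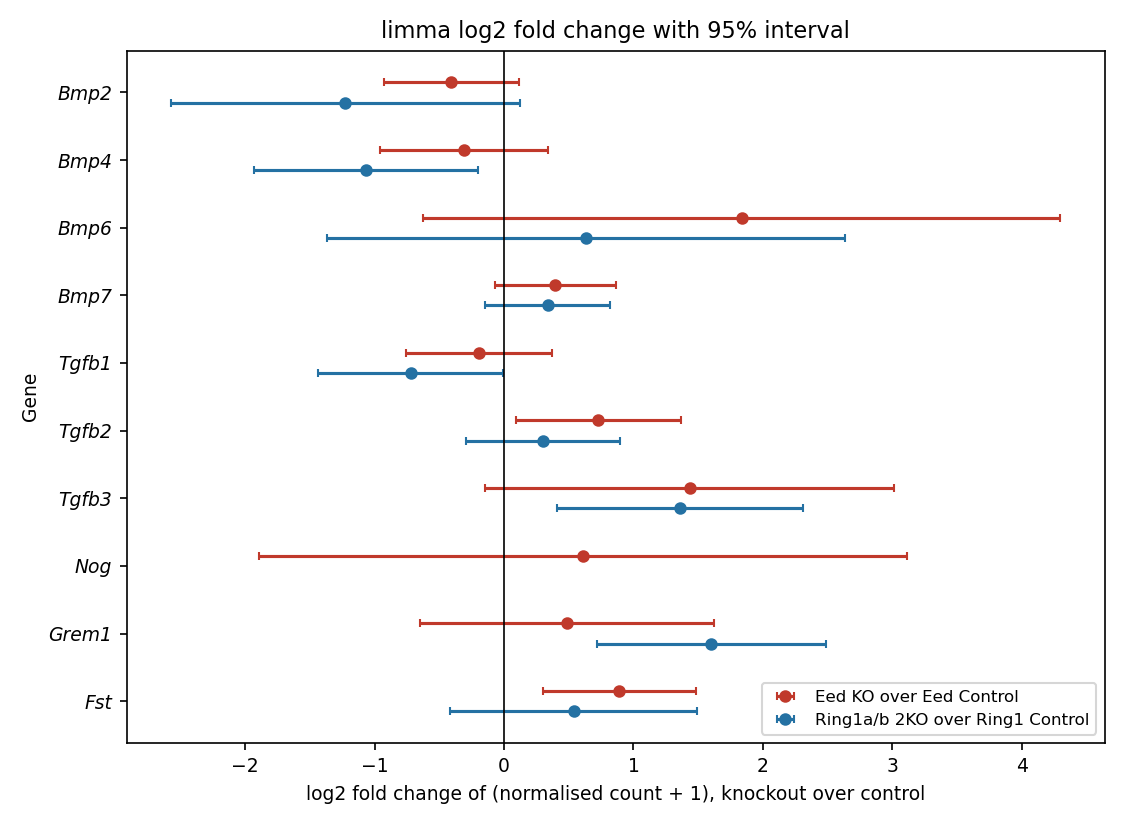
limma log2 fold change of each gene (x axis, on the log2 scale of normalised count + 1, knockout over control) with its 95% interval, for Eed KO over Eed Control (red) and Ring1a/b 2KO over Ring1 Control (blue); Nog was not tested in the Ring1 table. Every gene tested in both has its points on the same side of 0, and the interval with the highest lower bound is that of Grem1 in the Ring1 comparison, 0.72 to 2.49.

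The comparisons share no library, and the 9 members tested in both had the same sign in each: Bmp2, Bmp4 and Tgfb1 negative, and Bmp6, Bmp7, Tgfb2, Tgfb3, Grem1 and Fst positive. Over all 15096 genes tested in both, 67% had the same sign. In the Eed comparison 7 of 10 members were positive, where 51.2% of all genes were, and in the Ring1 comparison 6 of 9 were, where 50% were. Among the 9 tested members, 4 were higher and 3 lower in both Ring1a/b 2KO libraries than in both controls, where over all genes 42.9% did not overlap, 21.4% higher and 21.5% lower. In the Eed comparison the sign of Tgfb1, Nog or Grem1 turned when a single control was left out, and in the Ring1 comparison that of Bmp6 or Fst when a single 2KO library was. The difference between the effects passed limma for 0 of the 9 members and for 0 of 15096 genes, with 1.89% of genes at an unadjusted p under 0.05. The smallest unadjusted p among the members was 0.143, for Bmp2 (difference 0.82, 95% interval −0.32 to 1.95).

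The rest of the pathway was read from lists of other ligands, other antagonists, latency and activation genes, receptors, SMADs and targets, 83 genes in all. In the Eed comparison 68 were tested, 33 positive and 35 negative, with a median log2 fold change of −0.029 against 0.0080 over all genes. limma called 0, with 6 higher and 1 lower at an unadjusted p under 0.05, where 3.4% of all genes were higher and 1.33% lower at that level. The authors' deposited table called 2 of them higher and 0 lower, against 0.707% and 0.0539% of all genes. In the Ring1 comparison 66 were tested, 29 positive and 37 negative, with a median of −0.15 against −0.00062 over all genes. limma called 0 there, with 8 higher and 7 lower at an unadjusted p under 0.05, where 5.62% of all genes were higher and 4.81% lower at that level. The authors' deposited table called 3 of them higher and 0 lower, against 1.18% and 0.31% of all genes.

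The 2 genes called in the Eed comparison act at the end of the BMP pathway. Smad6, an inhibitory SMAD that BMP signals induce, had 89.9, 20.7 and 52.1 counts in Eed KO against 1.95, 8.12 and 4.05 in Eed Control, 11.5-fold in the means. Msx1, a homeobox gene that responds to BMPs, had 64.7, 33.2 and 30.0 counts against 2.92, 2.03 and 6.07, 11.6-fold. In both cases all Eed KO libraries were above all controls, as for 5.06% of all genes. The adjusted p in the authors' deposited table was 0.0106 for Smad6 and 0.00851 for Msx1, while limma gave adjusted p = 0.579 and 0.537. In the Ring1 comparison Smad6 had 34.0 and 30.5 counts in 2KO against 10.9 and 6.65 in control, with an authors' deposited adjusted p of 0.514, and Msx1 had 112 and 68.1 against 50.01 and 19.9, with 0.4998. The median log2 fold change of the 8 SMADs was 0.027 in the Eed comparison and −0.25 in the Ring1 comparison.

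Further BMP targets did not follow Smad6 and Msx1 in the Eed comparison. The Id genes, inhibitors of helix-loop-helix factors and standard readouts of BMP signalling, had means near or below those of their controls. Id1 had a log2 fold change of −0.14 in the Eed comparison and −0.28 in the Ring1 comparison, and Id3 had −0.39 and −0.95. None passed (limma adjusted p of at least 0.488 for Id1, Id2, Id3 and Id4 in both). Id1 had 729 and 109 counts in Ring1a/b 2KO against 827 and 143 in Ring1 Control, and Id3 had 640 and 179 against 1230 and 347. The deeper library was the higher in both groups for both genes. The limma intervals there ran from −6.45 to 5.88 for Id1 and from −4.77 to 2.88 for Id3. They are too wide to show whether Id1 and Id3 were lower, higher or level in the Ring1 comparison. The 19 targets had a median log2 fold change of 0.012 in the Eed and −0.21 in the Ring1 comparison.

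The genes called in the Ring1 comparison were Gdf11, Ltbp2 and Ctgf. Ctgf, a matrix-associated protein induced by TGF-β, had 718 and 459 counts in 2KO against 119 and 183 in control, 3.90-fold, with an authors' deposited adjusted p of 0.000157 and a limma adjusted p of 0.129. Gdf11, a TGF-β family ligand, had 51.9 and 122 counts against 11.98 and 9.97, 7.92-fold (authors' deposited adjusted p = 0.00900, limma adjusted p = 0.207). Ltbp2, a matrix protein related to the latent TGF-β binding proteins, had 172 and 271 counts against 53.1 and 81.4, 3.29-fold (authors' deposited adjusted p = 0.0201, limma adjusted p = 0.224). All 3 had both 2KO libraries above both controls, as did 21.4% of all genes. In the Eed comparison Ctgf and Ltbp2 had log2 fold changes of 1.39 and 1.66, with authors' deposited adjusted p of 0.0895 and 0.208. Gdf11 had 19.2, 0 and 12.6 counts in Eed KO against 6.82, 13.2 and 14.2 in Eed Control, which overlapped.

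Among genes that passed no test, the smallest p in each role went as follows. Inhba, the activin A chain that follistatin neutralises, had 583, 285 and 105 counts in Eed KO against 53.6, 99.4 and 98.1 in Eed Control, with an authors' deposited adjusted p of 0.0564, and Inhbb had a log2 fold change of 0.91. Eed KO 1 was the highest library for Inhba, Tgfb3, Tgfb2 and Fst alike. Lefty2, a Nodal inhibitor, was scarce, with a log2 fold change of −2.19, and Fstl1, a secreted relative of follistatin, had 0.98. Itgb8, an integrin chain that activates latent TGF-β, had 0.62 in the Eed comparison.

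In the Ring1 comparison Bmp3, an antagonistic member of the BMP family, had 902 and 543 counts in 2KO against 1718 and 1326 in control (log2 fold change −1.11, limma adjusted p = 0.249). The protease gene Htra1 had −0.83, the BMP-binding membrane protein Crim1 −0.62 and the latent TGF-β binding protein Ltbp4 −0.66. All 4 were lower in both 2KO libraries than in both controls, as were 21.5% of all genes. They were named for a small p, which favours such separation.

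Receptors passed no test. Their median log2 fold change was −0.040 in the Eed and −0.20 in the Ring1 comparison over 14 genes. Tgfbr3, the co-receptor betaglycan, had 972 and 567 counts in Ring1a/b 2KO against 1483 and 1288 in Ring1 Control (log2 fold change −0.90, limma adjusted p = 0.349), and a log2 fold change of −0.45 in the Eed comparison. Bambi, a decoy receptor, had −1.04 in the Ring1 comparison, and Eng had 2.14 in the Eed comparison from low and uneven counts. Smad5, which carries BMP signals, had −0.19 and −0.49 in the Eed and Ring1 comparisons. Bmpr1a, a type I BMP receptor, had mean counts of 6177 in Eed KO and 6690 in Eed Control, and 3079 in Ring1a/b 2KO and 3718 in Ring1 Control. Acvr1c was scarce, with mean counts of 23.1 in Eed KO and 32.7 in Eed Control, and 21.1 in Ring1a/b 2KO and 4.79 in Ring1 Control. Bmpr1a and Acvr1c are named here with their values already seen.

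**Figure D4:**
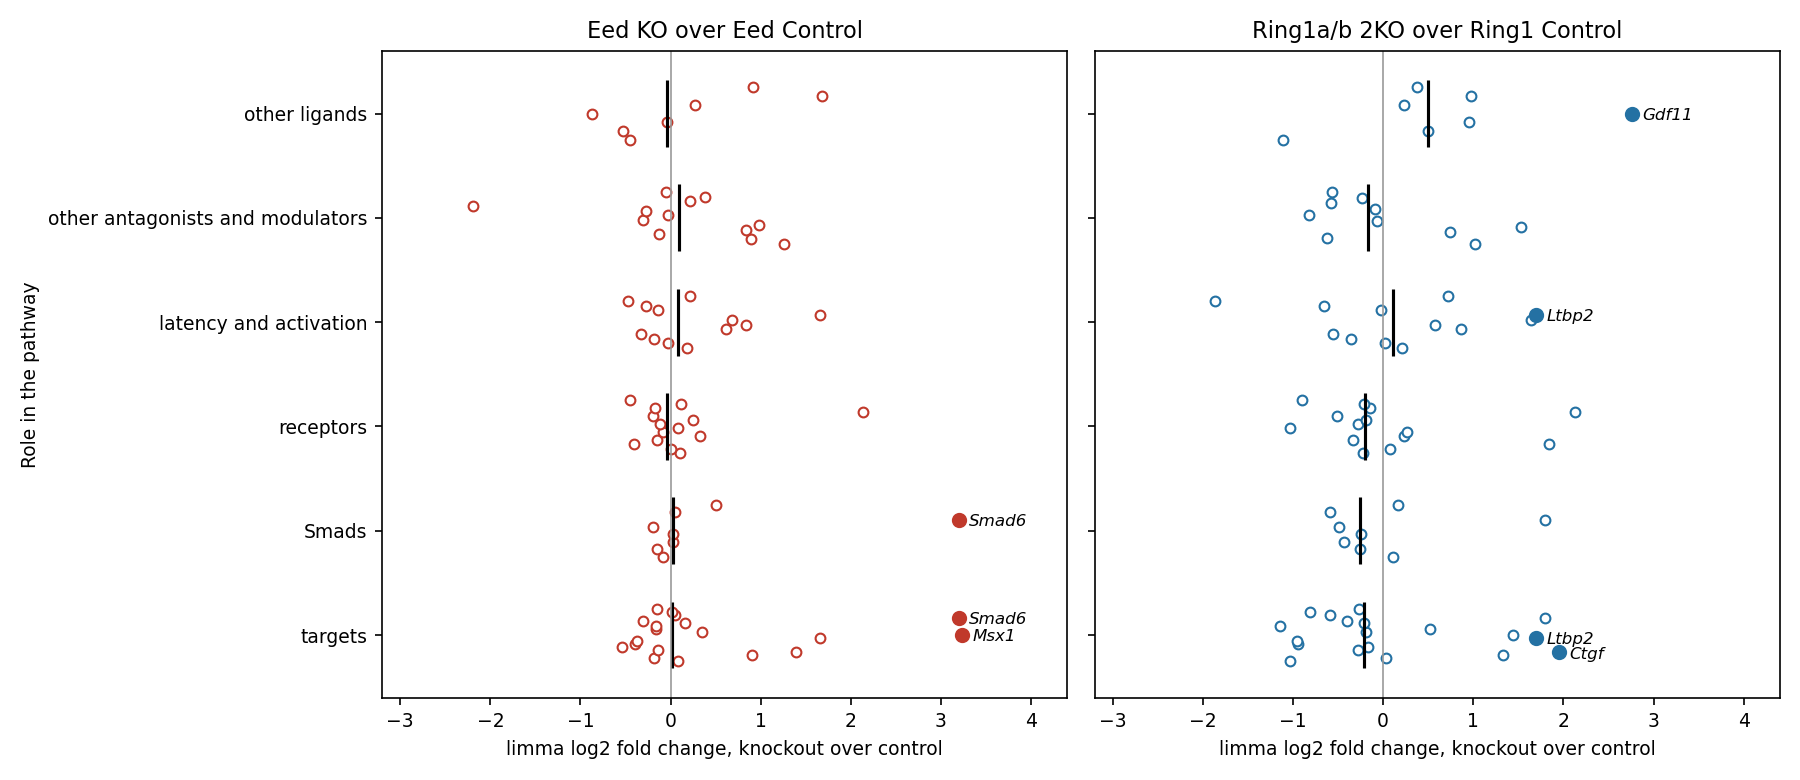
limma log2 fold change (x axis) of every tested gene of 6 pathway roles (y axis) for Eed KO over Eed Control (left) and Ring1a/b 2KO over Ring1 Control (right); filled, named points had an adjusted p under 0.05 in the authors' deposited table, open points did not, and black bars are medians. Smad6 and Msx1 stand at 3.20 and 3.23 on the left, and Gdf11, Ctgf and Ltbp2 at 2.76, 1.95 and 1.70 on the right, while all medians lie between −0.25 and 0.50.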

How the data were processed

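Total RNA of sorted cells (10 ng) was amplified and sequenced as paired reads of 150 nucleotides, per the labels' protocols. Reads were quantified with kallisto 0.42.5 on mm10 and tested with DESeq2 3.11, per the submitters' processing notes, with settings and strand not given in the sources used here. The values per library in the authors' deposited tables are counts divided by a size factor (a signal unit), called normalised read counts here. In each library 100% were whole multiples of 1 step (tolerance 1e-06), so reads were recovered. The log2 fold changes, test scores and p-values in the authors' deposited tables are their own; the scores were not used. The reads counted for Bmp4, Bmp6, Tgfb2, Tgfb3 and Fst may include those of annotated genes that overlap them on the other strand.

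limma 3.58.1 (trend, robust) was fitted to log2(normalised count + 1) where a gene averaged at least 5 across its table, with Benjamini-Hochberg adjusted p over all genes; on this scale the added 1 shrinks the fold of scarce genes, but a mean of logs can also exceed the log of a ratio of means, as for Bmp6 in the Eed comparison (1.84, against 0.98 in the authors' deposited table). The difference of effects came from 1 fit over all libraries. Alternatives were other pseudocounts, filters and scalings, a replicate block, DESeq2 1.42.0 and edgeR 4.0.16 on recovered reads, and each library left out. DESeq2 without each library and the Y-linked level as a term were chosen after seeing the data. Folds are ratios of group means. Lengths and positions are from GENCODE M21 (mm10). The fits were checked on simulated data with the same fixed spread for every gene, which does not show how they perform at the spread of these libraries. The members, lists and named genes (those called in either comparison, else the 2 smallest p per role) were chosen with earlier results of these data known. Of the pathway genes, Ctgf stands for Ccn2. Nothing states that libraries are separate mice, so p-values measure spread between these samples, which may be technical. Amplified reads carry no molecular identifiers, so floors cover counting error only.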

Additional observations from a re-analysis of the deposited data

How the results depend on the processing

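In the Eed comparison limma called 0 of the 10 members under every alternative and 0 genes, except 1 gene with the replicate block and 0 to 4 genes without each library in turn (2 without Eed Control 2, 4 without Eed KO 2); DESeq2 on recovered reads and the authors' deposited table each called 127. In the Ring1 comparison limma called 6 genes, against 10 with no filter, 36 with the replicate block, 0 by edgeR, 231 by DESeq2 and 231 in the authors' deposited table, and 0 to 438 without each library in turn (438 without Ring1a/b 2KO 1, 2 without Ring1a/b 2KO 2, 0 without either control). Members called there numbered 1 by DESeq2 and in the authors' deposited table (Grem1), and 0 to 2 without each library, the 2 being Bmp4 and Grem1 without Ring1a/b 2KO 1. DESeq2 without each library called 30 to 189 genes in the Eed comparison and 39 to 679 in the Ring1 comparison. For the difference of effects the gene count was 0 to 4 without each library (1 without Ring1 Control 1, 4 without Ring1a/b 2KO 1).

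Ranges of log2 values without each library that crossed 0 were −0.34 to 0.033 for Tgfb1, −0.49 to 1.25 for Nog and −0.032 to 0.93 for Grem1 in the Eed comparison, and −0.39 to 1.65 for Bmp6 and −0.015 to 1.09 for Fst in the Ring1 comparison. For the difference of effects they were −0.018 to 2.25 for Bmp6, −0.12 to 0.22 for Bmp7, −0.76 to 0.59 for Tgfb3 and −0.20 to 0.91 for Fst, and quantile normalization gave −0.024 for Bmp7 and −0.020 for Tgfb3. The cause was not tested. The replicate block changed no member's call. Labels share replicate numbers, but same-numbered Eed libraries deviated from their group means with correlations of −0.11, 0.15 and 0.21. Not every Eed library matched its own number best, so the numbers were not taken as pairs. Same-numbered Ring1 libraries had 0.14 and crossed ones −0.14, which mirror each other with 2 libraries a group and cannot settle pairing there. Library 1 was the deeper in both Ring1 groups. Depth limits Nog and Bmp6, and 2 libraries a group limit the Ring1 comparison.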
